A study of Homo sapiens with 74 samples.

Results

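The genes described here are 10 human type II classical cadherin genes, CDH6, CDH7, CDH8, CDH9, CDH10, CDH11, CDH12, CDH18, CDH19 and CDH20. They were taken as a named list and found by symbol, among 39037 genes of an RNA table and by the 100 kb bins that their RefSeq spans (GRCh38.p14) overlap. Those spans overlap 48 of 28163 bins (hg38) of the autosomes. Cadherins are calcium-dependent adhesion molecules of the cell surface. Type II members bind their partners on the next cell by exchanging an N-terminal strand anchored by a pair of conserved tryptophans, and their cytoplasmic tail binds p120 and beta-catenin, which links them through alpha-catenin to actin. Many are known for expression in subsets of neurons, neural crest, glia or mesenchyme, and in vertebrate nervous systems they take part in sorting and connecting cells.

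All samples came from HEK293T, a transformed human line of embryonic kidney origin. The bacterial enzyme Dam methylates adenine in GATC, and DamID (DNA adenine methyltransferase identification) reads that mark by cutting methylated GATC with DpnI. Dam was used as a fusion to lamin B1 (LMNB1), a protein of the nuclear lamina, or untethered, and either as the V133A variant or as wild type (WT). The bulk set held DamV133A-LMNB1 and DamV133A, in 2 libraries each. A second set, which compared Dam variants, held 2 libraries each of DamV133A-LMNB1, DamV133A, DamWT-LMNB1 and DamWT. Single-cell DamID had 15 cells of a first batch with DamV133A-LMNB1 and m6A-Tracer, which binds GATC once it is methylated. A second batch held 36 cells with DamV133A-tdTomato-LMNB1 and m6A-Tracer-NES. Another 3 first-batch cells, labelled as Dam only, had DamV133A and m6A-Tracer. RNA was read in 2 libraries per group, from DamV133A-LMNB1, DamV133A, m6A-Tracer and untreated cells. Constructs were introduced by transient transfection, so the share of cells that carried one is not known from the tables. The labels give 1 treatment text for all samples, untreated cells included, with 1 mM of the ligand Shield-1 for 20 hours. Libraries held 402171358 to 524019579 coverage counts in bulk, 3162041 to 10666805 counts in the variant comparison, 9526 to 348793 unique fragments per cell and 39690886 to 51455298 estimated RNA counts. Whether replicates were separate cultures is not given in the labels, so p-values measure only the spread between libraries, which may be technical.

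The 10 genes lay in 4 blocks on 3 chromosomes. On chromosome 5, CDH18 (chr5:19471296-20575713), CDH12 (chr5:21750673-22853344), CDH10 (chr5:24487100-24644978), CDH9 (chr5:26880597-27038586) and CDH6 (chr5:31193686-31329146) followed each other, with only PRDM9, which encodes a meiotic histone methyltransferase, and LOC124901178 as other protein-coding genes between them. On chromosome 16 lay CDH8 (chr16:61647250-62036438) and CDH11 (chr16:64943753-65123744), with none between them. On chromosome 18 lay CDH20 (chr18:61333430-61555779) alone and CDH7 (chr18:65750252-65890337) beside CDH19 (chr18:66501083-66604090), with none between these neighbours. All 10 were longer than the median autosomal protein-coding gene of 24.5 kb, at 103 to 1104.4 kb.

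RefSeq start-site windows, from 250 bases before to 50 after the start, were held for 8 of the 10 genes, and CDH6 and CDH11 had no entry. Since Dam methylates GATC alone, the windows were searched for that word, which is the same on both strands. It was present in 3 of the 8, CDH8, CDH7 and CDH12, and in 41.7% of all 35116 windows of the same length. CG pairs numbered 5 to 24 in the 8 windows and were under the median of all windows, 14, in 7 of them. CDH8, with 24, was the exception. The bases before the start are shown for CDH8, the only one of the 8 whose start-site bin was not called higher with the fusion in bulk, and for CDH7 and CDH19, neighbours in 1 lamina-associated run. Each is given 5′ to 3′ on the strand of its gene in GRCh38.p14, with GATC in capitals. They are chr16:62036439-62036688 on the minus strand for CDH8, chr18:65750002-65750251 on the plus strand for CDH7 and chr18:66604091-66604340 on the minus strand for CDH19.
CDH8: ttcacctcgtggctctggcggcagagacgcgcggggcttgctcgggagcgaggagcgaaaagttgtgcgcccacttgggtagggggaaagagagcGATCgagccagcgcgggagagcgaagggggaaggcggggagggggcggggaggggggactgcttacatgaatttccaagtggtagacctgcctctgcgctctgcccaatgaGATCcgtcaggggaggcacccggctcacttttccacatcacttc
CDH7: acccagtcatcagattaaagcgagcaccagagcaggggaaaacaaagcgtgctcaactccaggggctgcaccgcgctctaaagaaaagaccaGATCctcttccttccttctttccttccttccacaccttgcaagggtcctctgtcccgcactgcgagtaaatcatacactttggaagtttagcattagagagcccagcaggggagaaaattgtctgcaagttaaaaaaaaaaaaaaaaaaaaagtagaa
CDH19: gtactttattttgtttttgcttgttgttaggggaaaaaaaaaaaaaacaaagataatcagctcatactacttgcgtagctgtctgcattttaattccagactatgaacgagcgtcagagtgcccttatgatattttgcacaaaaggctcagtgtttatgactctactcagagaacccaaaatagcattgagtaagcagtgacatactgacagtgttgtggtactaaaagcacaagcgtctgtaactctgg
The stretch of CDH8 held 2 copies of GATC and 19 CG pairs, that of CDH7 1 and 6, and that of CDH19 0 and 4. Their GC contents were 64.0%, 45.6% and 38.0%. A GATC word in this window is a possible site of methylation and no measure of it.

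The first comparison asked where the genes lay relative to the lamina in bulk, from DamV133A-LMNB1 over DamV133A. Of the 48 member bins, 41 were higher with the fusion, which names them LAD (lamina-associated domain) bins, 0 were lower and 7 were called in neither direction. Among all 27944 tested bins 35.2% were higher and 36.2% lower. The median log2 fold change was 1.23 over the member bins, -0.06 over all bins and 1.14 over LAD bins. Every bin was a LAD bin for 6 of the 10 genes, CDH18, CDH12, CDH10, CDH9, CDH7 and CDH19, against 9.33% of 19082 autosomal protein-coding genes and 10.4% of the 7395 that overlap at least 2 bins. A call needed a Benjamini-Hochberg adjusted p under 0.05, over all bins, in the quasi-likelihood test of edgeR. Scaling by library totals in place of TMM, edgeR's trimmed-mean factors, moved the median of all bins to -0.32 and that of the member bins to 0.97. The authors' deposited table has a median log2 fold change of 1.27 over the same 48 bins and marks 5 of them as control LAD bins, 2 in CDH18, 2 in CDH19 and 1 in CDH9.

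**Figure D1:**
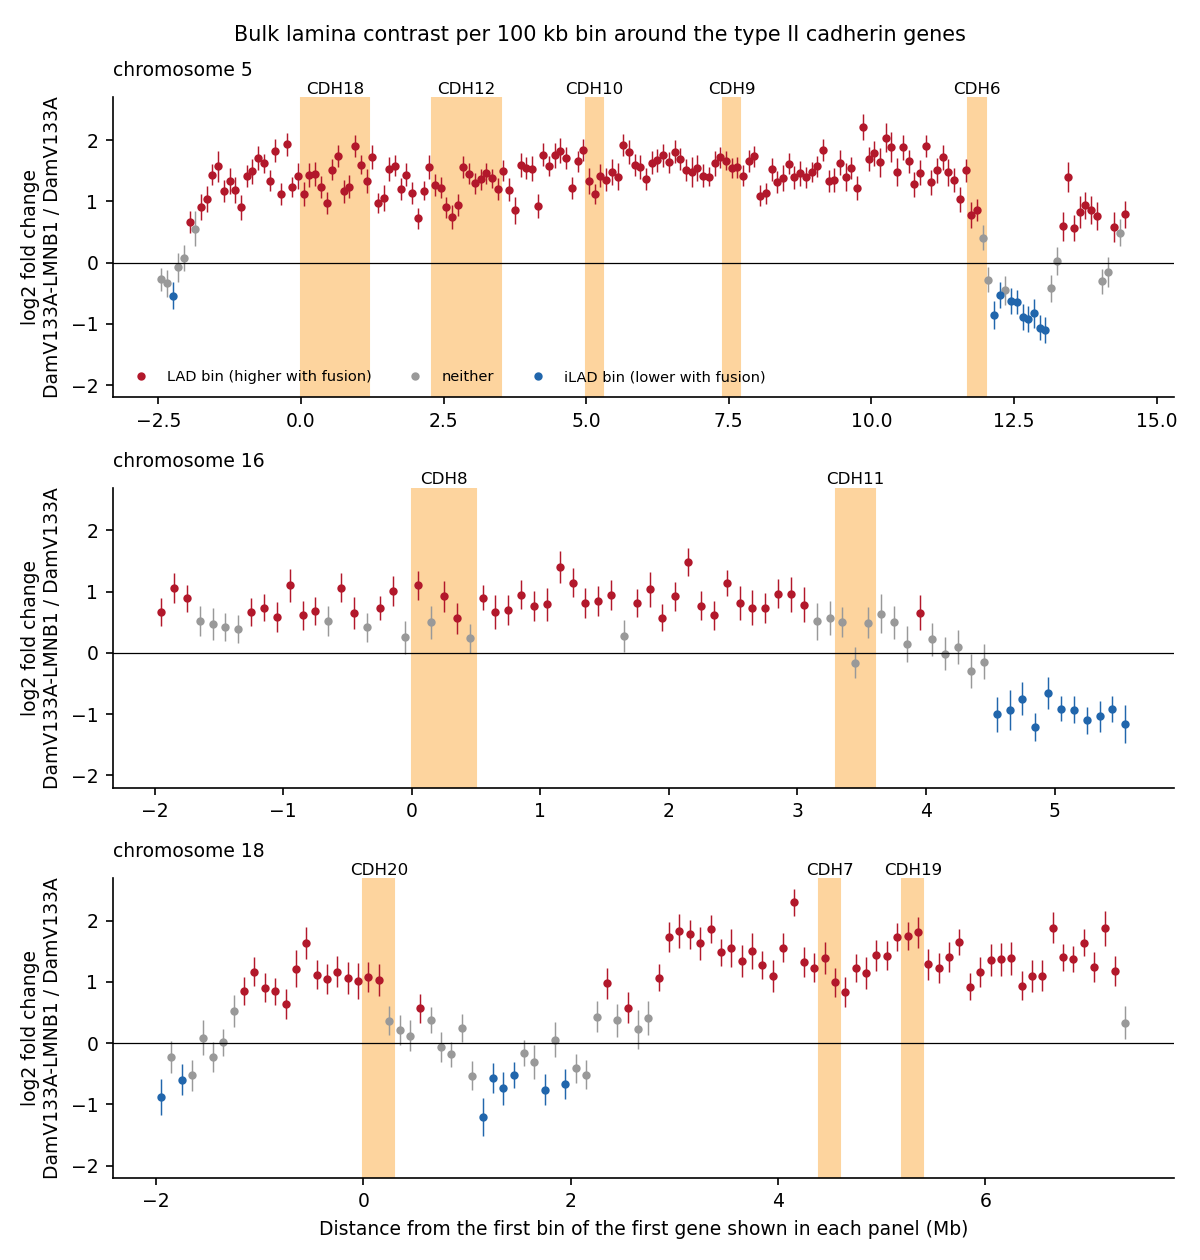
Log2 fold change of bulk DamV133A-LMNB1 over DamV133A (vertical axis, bars ± SE, n = 2 and 2) per 100 kb bin against the distance in Mb from the first bin of the first gene of each panel. Shaded spans are the member genes, colours give the call of each bin, and the chromosome 5 genes lie in 1 unbroken stretch of LAD bins that ends within CDH6.

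The 5 chromosome 5 genes lay in 1 run of 137 LAD bins, chr5:17600001-31300000, with a median log2 fold change of 1.47. CDH18, a cadherin of the central nervous system, covered 12 bins with a median of 1.38. Its mean level per bin in CPM, a TMM-normalised count per library of equal size, was 77.7 and 86.0 CPM in the DamV133A-LMNB1 libraries, against 31.4 and 31.0 CPM in the DamV133A libraries. Its highest bin, chr5:20300001-20400000, was at 1.91 ± 0.18 (SE, n = 2 and 2, edgeR adjusted p = 2.41e-08) and its lowest, chr5:19800001-19900000, at 0.97 ± 0.18 (edgeR adjusted p = 7.07e-05). CDH12, a brain cadherin, also covered 12 bins and had 79.9 and 85.4 CPM per bin with the fusion, against 36.5 and 33.7 CPM with DamV133A. Within CDH12 the bins ranged from 0.74 ± 0.19 at chr5:22000001-22100000 (edgeR adjusted p = 0.00165) to 1.55 ± 0.18 at chr5:22200001-22300000 (edgeR adjusted p = 2.1e-07). In both genes each fusion library lay above each DamV133A library at gene level.

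CDH10 and CDH9, cadherins of the brain whose mouse counterparts mark sets of neurons, had 3 LAD bins each. CDH9 had the highest gene-level values of the 10, 98.7 and 108.3 CPM per bin with the fusion, against 36.3 and 32.4 CPM with DamV133A. Its bins were close together, from 1.54 to 1.67, and the highest, chr5:26800001-26900000, had 1.67 ± 0.16 (edgeR adjusted p = 2.24e-08). CDH10 had 72.5 and 72.1 CPM with the fusion and 30.7 and 29.2 CPM with DamV133A, with bins from 1.12 to 1.42. The stretches between the chromosome 5 genes were LAD as well, in 11 of 11, 15 of 15, 21 of 21 and 40 of 40 bins from CDH18 to CDH6.

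CDH6, first described in fetal kidney and used in kidney development, lay at the far end of the run. It had 57.1 and 48.8 CPM per bin in the DamV133A-LMNB1 libraries, against 35.0 and 30.7 CPM in the DamV133A libraries. Its 3 bins had log2 fold changes of 0.78 ± 0.22, 0.86 ± 0.18 and 0.41 ± 0.20 along the chromosome, and the last was not called (edgeR adjusted p = 0.0696). The last bin was called by the DESeq2 test (0.46), which called 36.9% of all bins higher, and without DamV133A library 1 (0.64), and the first was not called without that library (0.64, edgeR adjusted p = 0.0537). The run ended 0.029 Mb short of the end of the gene. The bin before CDH6 stood at 1.51, the bin after it at -0.28 in neither class, and the next at -0.86 in the inter-LAD (iLAD) class, the name for bins that were lower with the fusion. DROSHA, which encodes a nuclease of microRNA maturation, began 0.071 Mb after CDH6, and 1 of its 2 bins was iLAD and 0 were LAD.

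The pair on chromosome 16 was weaker in this contrast. CDH8, a cadherin of the forebrain, had 31.5 and 34.1 CPM per bin with the fusion, against 19.6 and 21.7 CPM with DamV133A, and 3 of its 5 bins were LAD. Its highest bin, chr16:61600001-61700000, was at 1.11 ± 0.23 (edgeR adjusted p = 0.000292). Its lowest, chr16:62000001-62100000, which holds its start site, was at 0.24 ± 0.24 (edgeR adjusted p = 0.369). The longest LAD run within it spanned 2 bins. The calls of the 3 middle bins depended on single libraries. Without DamV133A-LMNB1 library 1, bin 2 was called (0.86) and bin 3 was not (0.48). Bin 4 was not called without DamV133A-LMNB1 library 2 (0.34) or DamV133A library 1 (0.27). With scaling by library totals it was not called either (0.30, edgeR adjusted p = 0.279). CDH11, a cadherin of osteoblasts and other mesenchymal cells, had 27.1 and 24.2 CPM per bin with the fusion, against 19.0 and 23.1 CPM with DamV133A. None of its 3 bins passed, at 0.50 ± 0.25, -0.16 ± 0.25 and 0.49 ± 0.25 (edgeR adjusted p = 0.0739, 0.575 and 0.0808), although the DESeq2 test called the outer bins (0.55 and 0.55). The first was also called without DamV133A-LMNB1 library 2 (0.65) and the last without DamV133A-LMNB1 library 1 (0.63). Between them, 25 of 28 bins were LAD at a median of 0.82, above the CDH11 bins. The next gene after CDH11 was CDH5, the cadherin of vascular endothelium, in 2 iLAD bins with a median of -0.98.

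On chromosome 18, CDH20, known from the developing nervous system, had 28.6 and 32.8 CPM per bin with the fusion, against 15.7 and 19.5 CPM with DamV133A. Its first bins, with its start site, were LAD at 1.08 ± 0.25 and 1.03 ± 0.26, and its last, at 0.37 ± 0.23, was not called (edgeR adjusted p = 0.161). They closed a run of 1.4 Mb, chr18:60100001-61500000, that ended 0.056 Mb before the end of the gene. CDH7 and CDH19 lay inside a run of 4.5 Mb, chr18:64100001-68600000. CDH7, a cadherin of migrating neural crest in the chick, had 36.5 and 30.5 CPM with the fusion, against 13.6 and 15.9 CPM with DamV133A, in bins at 1.39 ± 0.26 and 0.99 ± 0.24. CDH19, a marker of Schwann cell precursors, had 42.0 and 42.8 CPM with the fusion, against 12.9 and 11.9 CPM with DamV133A. Its bins, at 1.75 ± 0.23 and 1.81 ± 0.25, made it the gene with the highest median log2 fold change of the 10, 1.78. The 41 bins between CDH20 and CDH7 were mixed, with 19 LAD and 6 iLAD.

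**Figure D2:**
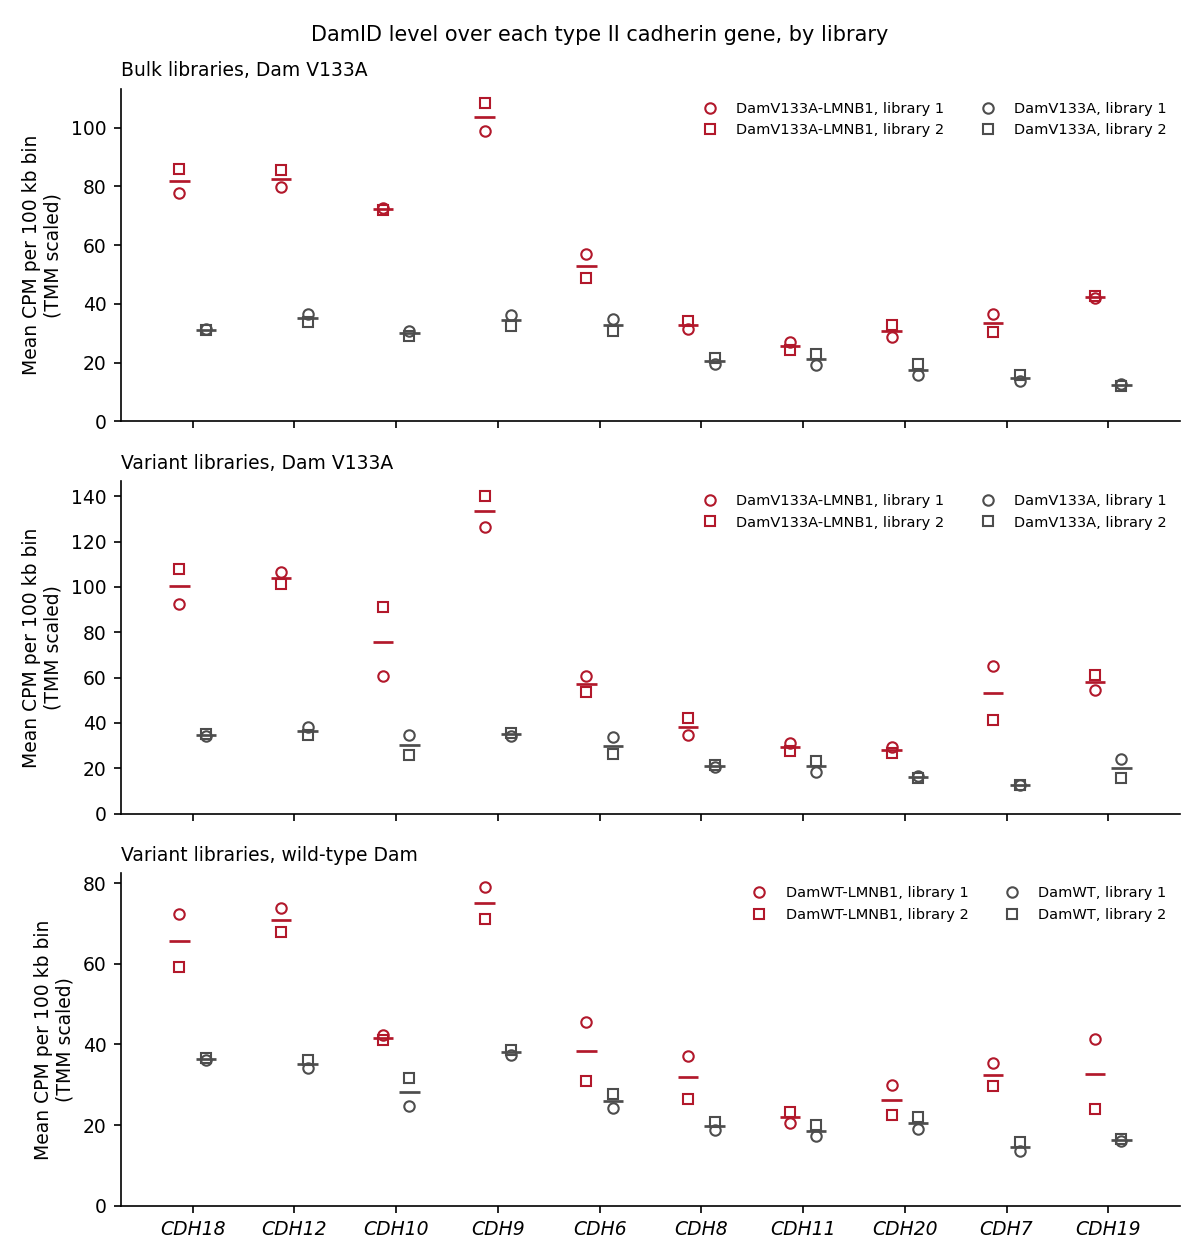
Mean CPM per 100 kb bin over each gene (vertical axis, TMM scaled) in each library, fusion in red and untethered Dam in grey, with short lines at the mean of 2 libraries. The gap between the lower fusion and the higher untethered library is smallest at CDH11 in the V133A panels. For wild type it is smallest at CDH20, then CDH11. No CDH11 bin was called in any of these 3 contrasts.

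The level of a gene and its fold change gave different orders. DamV133A alone, as the mean of its 2 libraries, had a median of 33.4 CPM per bin over the chromosome 5 member bins, 21.4 CPM over those of chromosome 16 and 14.5 CPM over those of chromosome 18, against 31.6 CPM over all tested bins. The number of DpnI fragments per bin differed less, with medians of 221, 231 and 207 against 243 in all bins. CDH19 thus had the highest median log2 fold change at a fusion level, in CPM, under that of CDH6. The part of these level differences in the order of the genes was not tested. CDH18, CDH12 and CDH10 were neighbours in that order, at median log2 fold changes of 1.38, 1.29 and 1.33 that differed by less than the standard errors of their bins.

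The second comparison set the V133A variant against wild-type Dam in a separate set of 8 libraries. Their depth differed, with 9375210 and 9008454 counts for DamV133A-LMNB1 and 7941667 and 5190357 for DamV133A. DamWT-LMNB1 had 10666805 and 4923830 counts and DamWT 4448222 and 3162041. The part of depth in the number of bins called was not tested. With V133A, 38 of 48 member bins were higher in the fusion than in untethered Dam and 0 were lower, where 27.0% of all 28733 tested bins were higher and 23.7% lower, with a member median log2 fold change of 1.42. Scaled by library totals, 5317 bins of the table were higher and 9570 lower, against 7768 and 6797 with TMM, and the member median was 1.02. Calls covered every bin of CDH18, CDH12, CDH10, CDH9, CDH7 and CDH19, 2 of 5 bins of CDH8, 1 of 3 bins of CDH6, 1 of 3 bins of CDH20 and 0 of 3 of CDH11. DamWT-LMNB1 was higher than DamWT in 5 bins and lower in 0, where 2.42% of all bins were higher and 0.212% lower, with a member median of 0.80. These were 3 bins of CDH12, 1 of CDH18 and 1 of CDH9, all on chromosome 5. The wild-type median log2 fold change was -0.01 over all bins and 0.62 over LAD bins. The count depended on single libraries, with 0 calls without DamWT-LMNB1 library 1, 13 without DamWT-LMNB1 library 2, where 5.87% of all bins were higher, and 0 without either DamWT library. In the fits with 0 calls, no bin of the whole table was called higher either, so the loss was not particular to the member bins. The member median log2 fold change was 0.63 without DamWT-LMNB1 library 1. It was 0.73 without DamWT library 1 and 0.88 without DamWT library 2. The DESeq2 test called 17, and 10.6% of all bins. Counted as covered fragments in place of reads, the member median was 0.40 for wild type and 0.94 for V133A.

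The bins with the strongest wild-type signal were chr5:22700001-22800000 in CDH12 and chr5:26800001-26900000 in CDH9. The CDH12 bin had 89.9 and 83.6 CPM in the DamWT-LMNB1 libraries, against 27.8 and 27.9 CPM in the DamWT libraries (log2 fold change 1.64 ± 0.29, SE, n = 2 and 2, edgeR adjusted p = 0.0217). With V133A the same bin had 93.3 and 116.6 CPM with the fusion, against 55.9 and 36.7 CPM without, and its log2 fold change was 1.18 ± 0.28. The CDH9 bin had 114.7 and 102.5 CPM in the DamWT-LMNB1 libraries, against 39.2 and 39.8 CPM in the DamWT libraries (1.46 ± 0.26, edgeR adjusted p = 0.0217). With V133A it had 163.1 and 160.8 CPM with the fusion, against 31.5 and 46.8 CPM without (2.05 ± 0.26). At both bins the fusion libraries of either variant stood clear of their untethered libraries.

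**Figure D3:**
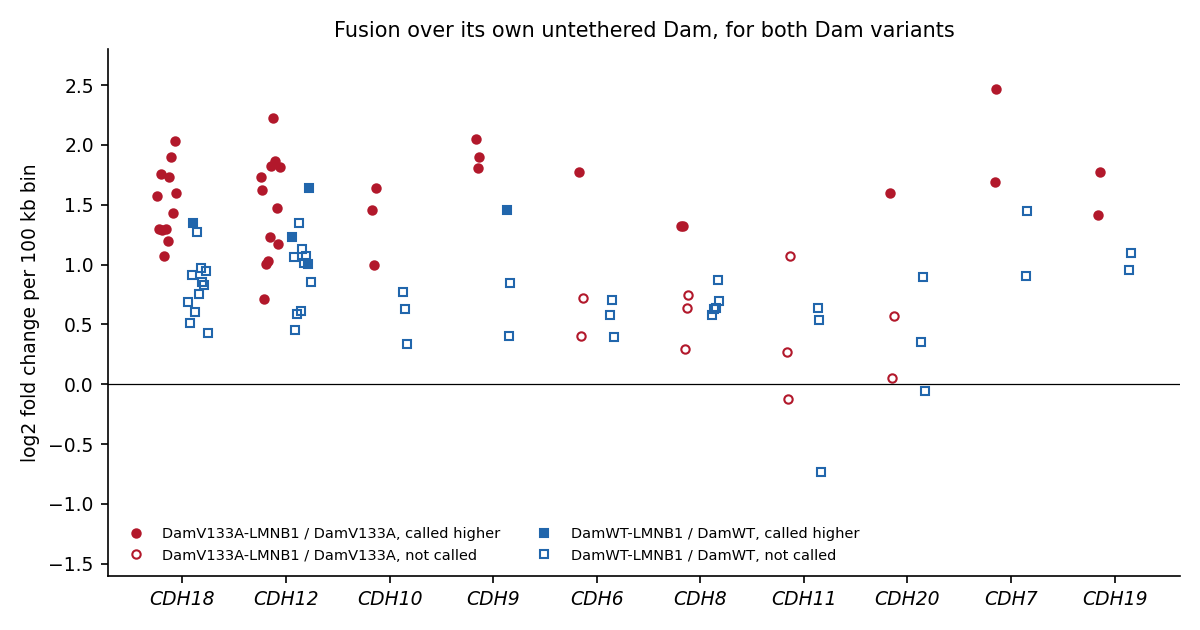
Log2 fold change per 100 kb bin (vertical axis) of DamV133A-LMNB1 over DamV133A (red circles) and DamWT-LMNB1 over DamWT (blue squares) for the 48 bins by gene, with filled points called higher. For V133A 38 points are filled and for wild type 5, and the CDH11 bins of both variants are all open.

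Whether the effect of the fusion differed between the variants was tested directly, as the V133A log2 fold change minus the wild-type one. Its median was 0.62 over the member bins, against -0.02 over all bins and 0.69 over LAD bins. None of the 48 was called higher or lower by edgeR, where 0.136% of all bins were higher and 0.358% lower. The DESeq2 test called 8 higher, where it called 8.59% of all bins higher and 6.59% lower. A CDH9 bin was called without DamV133A-LMNB1 library 1 (1.62) and a CDH11 bin without DamWT-LMNB1 library 2 (3.31). Both of these fits also called more bins of the whole table than the fit of all libraries. The smallest edgeR adjusted p, 0.098, was that of 1 bin each in CDH12 (1.21 ± 0.37) and CDH9 (1.40 ± 0.42). By gene, the medians ran from -0.37 in CDH11 to 1.06 in CDH9. Without the tether, edgeR called DamV133A and DamWT different in no member bin and in no bin of the table (0% higher and 0% lower). DESeq2 called none of the 38 member bins with an adjusted p, where 0.142% of such bins were higher and 0.881% lower. The member median of DamV133A over DamWT was -0.07.

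In single cells, a gene was counted as in contact where its fragments reached the number expected from the summed bulk DamV133A libraries and the depth of the cell. The genes were in contact in a mean of 72.0% of the 15 DamV133A-LMNB1 cells and 73.1% of the 36 DamV133A-tdTomato-LMNB1 cells, against 16.7% of the 3 Dam-only cells. Over 19085 autosomal protein-coding genes the same means were 20.7%, 23.3% and 48.6%. A median of 7 of the 10 genes (range 4 to 10) was in contact per cell in the first batch and of 7.5 (3 to 10) in the second, against 2 (0 to 3) in the Dam-only cells. All 10 were in contact in 4 and 6 cells of the LMNB1 groups and in 0 Dam-only cells. Cells are not replicates, so each group stands as 1 sample and no test was made. Construct, tracer and library kit all changed between the batches, and Dam-only cells were of the first batch alone.

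By gene, CDH18 was in contact in 13 of 15 first-batch cells (86.7%, exact Clopper-Pearson 95% interval 59.5 to 98.3), 30 of 36 second-batch cells (83.3%, 67.2 to 93.6) and 0 of 3 Dam-only cells (up to 70.8%). Intervals cover counting error of cells only. CDH12 followed with 12 of 15, 29 of 36 and 0 of 3. CDH10 had 11 of 15, 26 of 36 and 0 of 3 cells, CDH9 12, 23 and 0, and CDH6 12, 23 and 0, so at full depth the 5 chromosome 5 genes were in contact in no Dam-only cell. CDH8 had 8, 26 and 1, and CDH11, whose bins were not called in bulk, 8, 22 and 1. CDH20 had 10, 30 and 2, CDH7 10, 29 and 0, and CDH19 12, 25 and 1. In the first batch the lowest share was 53.3% for CDH8 and CDH11 and in the second 61.1% for CDH11. Their intervals were 26.6 to 78.7 in the first batch and 43.5 to 76.9 for CDH11 in the second. All genes were read in the same cells, and differences between genes were not tested. The shares of the chromosome 16 and 18 genes depended on the bulk DamV133A reference. With every bin expected equally, they were 33.3% to 53.3% in the first batch and 30.6% to 50.0% in the second. By the bulk reference they were 53.3% to 80.0% and 61.1% to 83.3%. The chromosome 5 genes, with equal bins, had 73.3% to 86.7% and 63.9% to 83.3%.

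**Figure D4:**
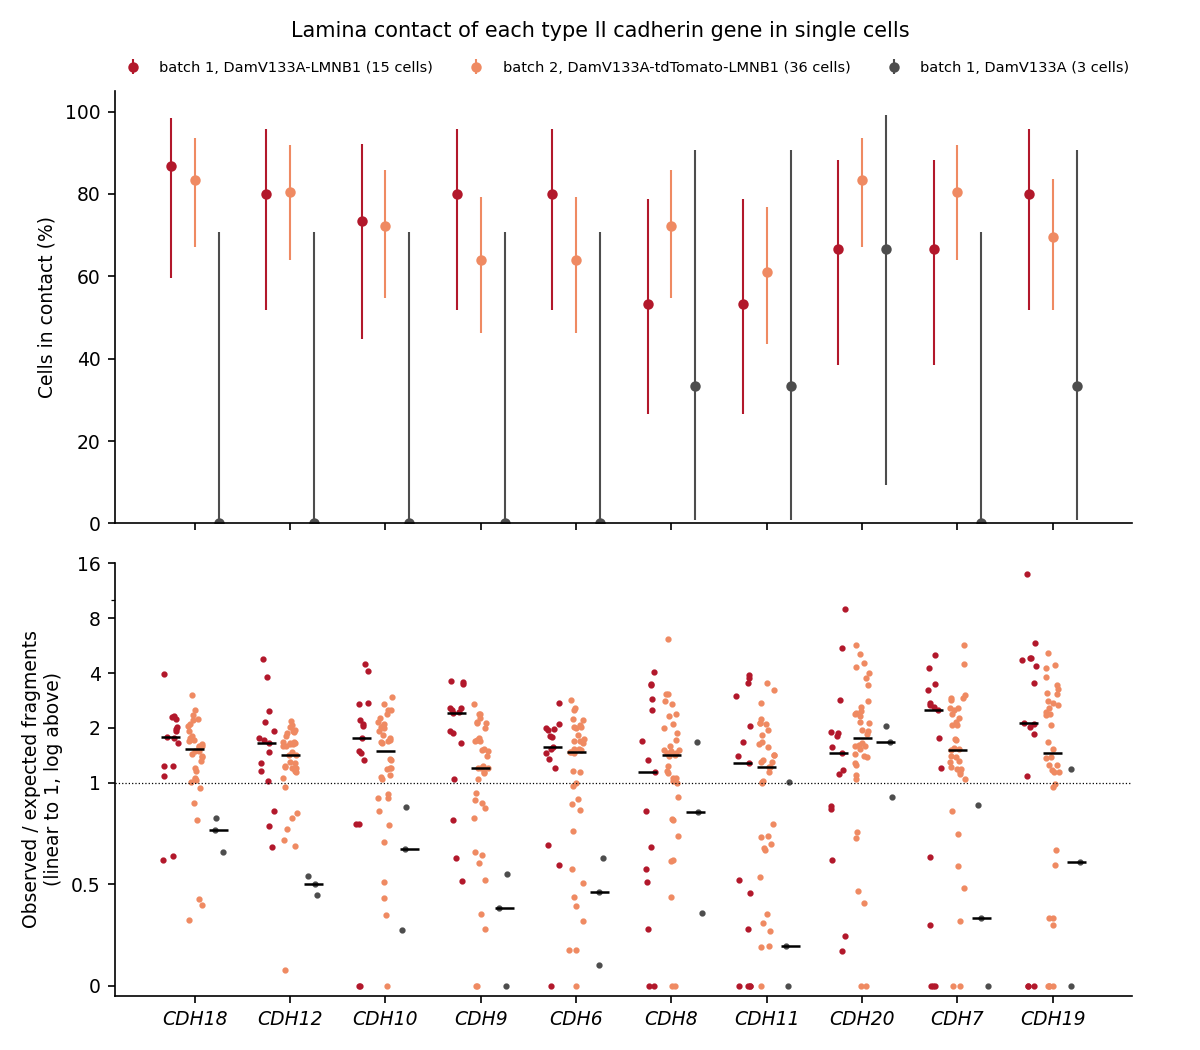
Top, percent of cells in contact for each gene (vertical axis) with exact 95% Clopper-Pearson intervals in the 3 groups of cells. Bottom, observed over expected fragments per cell, linear up to 1 and logarithmic above, with 1 point per cell and a line at the median; only CDH20 has a Dam-only median above 1.

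The depth behind these shares differed between genes. CDH18 and CDH12, the longest, had a median of 38.7 and 43.4 expected fragments per first-batch cell, and the median observed over expected was 1.79 (range 0.62 to 3.94) and 1.66 (0.69 to 4.80), against 0.77 and 0.50 in the Dam-only cells. CDH7 and CDH19 had 3.07 and 2.55 expected fragments, so a contact there rests on about 3 fragments, and ratios ran from 0 to 5.05 and 0 to 13.9. CDH19 had 148 fragments in all 15 first-batch cells together, 3.01 times the expected number, against 7 in the 3 Dam-only cells, 0.63 times the expected number. CDH20 stood apart, with 1.72 times the expected number in first-batch cells and 1.77 times in Dam-only cells, or 182 and 42 fragments. First-batch LMNB1 cells were thus not above Dam-only cells at CDH20, and in the second batch the ratio was 2.13. Thinned to 10000 fragments, with 1 shallower first-batch cell left out, the mean over the genes was 57.1% of 14 cells, 55.6% of 36 and 30.0% of 3, and CDH18, CDH10 and CDH6 were each in contact in 33.3% of the Dam-only cells. At 2 times the expected number it was 38.7%, 27.2% and 3.33%.

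Member bins taken singly were in contact in 58.8% of first-batch and 58.8% of second-batch cells and in 25.7% of Dam-only cells. LAD bins of the genome had 59.8%, 62.3% and 28.1%, and iLAD bins 14.3%, 17.2% and 48.5%, so by single bins the members stood near the LAD level. The step at the end of CDH6 was present in the cells too. The bin before CDH6 was in contact in 80.0% and 72.2% of LMNB1 cells and 0% of Dam-only cells, its own last bin in 26.7% and 47.2% and 0%, and the bin after it in 13.3% and 19.4% and 66.7%. Over pairs of genes, observed over expected values across cells correlated with a median Pearson r of 0.36 (14 pairs on 1 chromosome, 15 cells) and 0.39 (36 cells), against 0.06 and 0.17 for 31 pairs on different chromosomes. Taken relative to the LAD level of each cell, the medians were 0.31 and 0.29 on 1 chromosome and 0.04 and 0.06 between chromosomes. These are descriptions over cells that share depth and reference. Single pairs varied, as CDH10 with CDH6 at -0.21 in the first batch and 0.69 in the second.

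The RNA libraries asked whether the constructs changed expression. LMNB1 itself had 2548 and 2056 CPM with DamV133A-LMNB1, 250 and 253 CPM with DamV133A, 251 and 257 CPM with m6A-Tracer and 767 and 768 CPM in untreated cells. Over untreated libraries, LMNB1 was thus higher with the fusion (log2 fold change 1.58, edgeR adjusted p = 0.000151). It was lower with DamV133A (-1.61, edgeR adjusted p = 6.92e-05) and with m6A-Tracer (-1.59, edgeR adjusted p = 0.000191). The HEK293T markers VIM, KRT8, KRT18, NEFL, NEFM, PAX2 and CDH2 all reached 1 CPM in untreated cells. Of 6 markers of other cell types COL1A1 did, with 24.5 to 29.8 CPM over the 8 libraries, and HBB had 0 to 2 estimated counts.

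All 10 cadherin genes were low in RNA in each library, with at most 93.1 estimated counts. In untreated cells only CDH12 reached a mean of 1 CPM, and 9 of 10 reached 0.1 CPM. Levels of different genes were not compared, since no lengths are given for the transcripts counted. Of the 10 genes 8 passed the low-count filter, all but CDH19 and CDH20. None of the 8 was called in any of 4 contrasts by edgeR. DESeq2 called none either but gave an adjusted p for only 5 of them with DamV133A-LMNB1 over untreated, 6 with DamV133A over untreated, 5 with m6A-Tracer over untreated and 1, CDH12, with DamV133A-LMNB1 over DamV133A, and for CDH9 and CDH11 in no contrast. Of all genes with one, DESeq2 called 12.4% higher and 8.98% lower, 12.8% and 12.5%, 8.0% and 5.44%, and 16.5% and 11.8% in these contrasts. Among 17740 genes tested, 11.4% were higher and 7.56% lower with DamV133A-LMNB1 over untreated, 13.6% and 13.1% with DamV133A over untreated, 7.62% and 4.67% with m6A-Tracer over untreated, and 12.7% and 7.55% with DamV133A-LMNB1 over DamV133A. With library totals the split with DamV133A over untreated was 3470 higher and 1419 lower, and with DamV133A-LMNB1 over DamV133A 1458 and 2363, and the members still had no call. Contrasts over untreated share the untreated libraries. In bulk RNA, fewer expressing cells and less RNA per cell cannot be told apart.

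CDH12 had 1.85 and 1.23 CPM with DamV133A-LMNB1, 1.50 and 1.73 CPM with DamV133A, 1.64 and 1.53 CPM with m6A-Tracer, and 1.14 and 1.08 CPM in untreated cells. Each transfected library lay above both untreated ones, and the log2 fold changes over untreated were 0.48 ± 0.25, 0.54 ± 0.24 and 0.51 ± 0.25 (SE, n = 2 and 2, edgeR adjusted p = 0.209, 0.142 and 0.216). CDH10 had 0.90 and 0.50 CPM with the fusion, 1.04 and 0.88 CPM with DamV133A, 0.69 and 0.85 CPM with the tracer, and 0.53 and 0.34 CPM in untreated cells. DamV133A over untreated was at 1.13 ± 0.38 for CDH10, the single member contrast with an unadjusted p under 0.05 (0.0183, edgeR adjusted p = 0.0625), and it passed when no low-count filter was used (edgeR adjusted p = 0.0231). CDH18 had 1.00 and 0.57 CPM with the fusion, 0.73 and 0.49 CPM with DamV133A, 0.55 and 0.61 CPM with the tracer, and 0.48 and 0.39 CPM in untreated cells, and stood at 0.84 ± 0.39 with the fusion over untreated (edgeR adjusted p = 0.167). For CDH18 each transfected library lay above both untreated ones, by as little as 0.49 against 0.48 CPM, while for CDH10 a fusion library lay below an untreated one. CDH6 had 0.64 and 0.71 CPM with the fusion, above the 0.57 and 0.47 CPM of untreated cells (edgeR adjusted p = 0.462). Its DamV133A libraries, at 0.46 and 0.68 CPM, overlapped the untreated ones. CDH8 had 0.86 and 0.69 CPM with the fusion and 0.64 and 0.83 CPM in untreated cells, and these 2 groups overlapped.

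**Figure D5:**
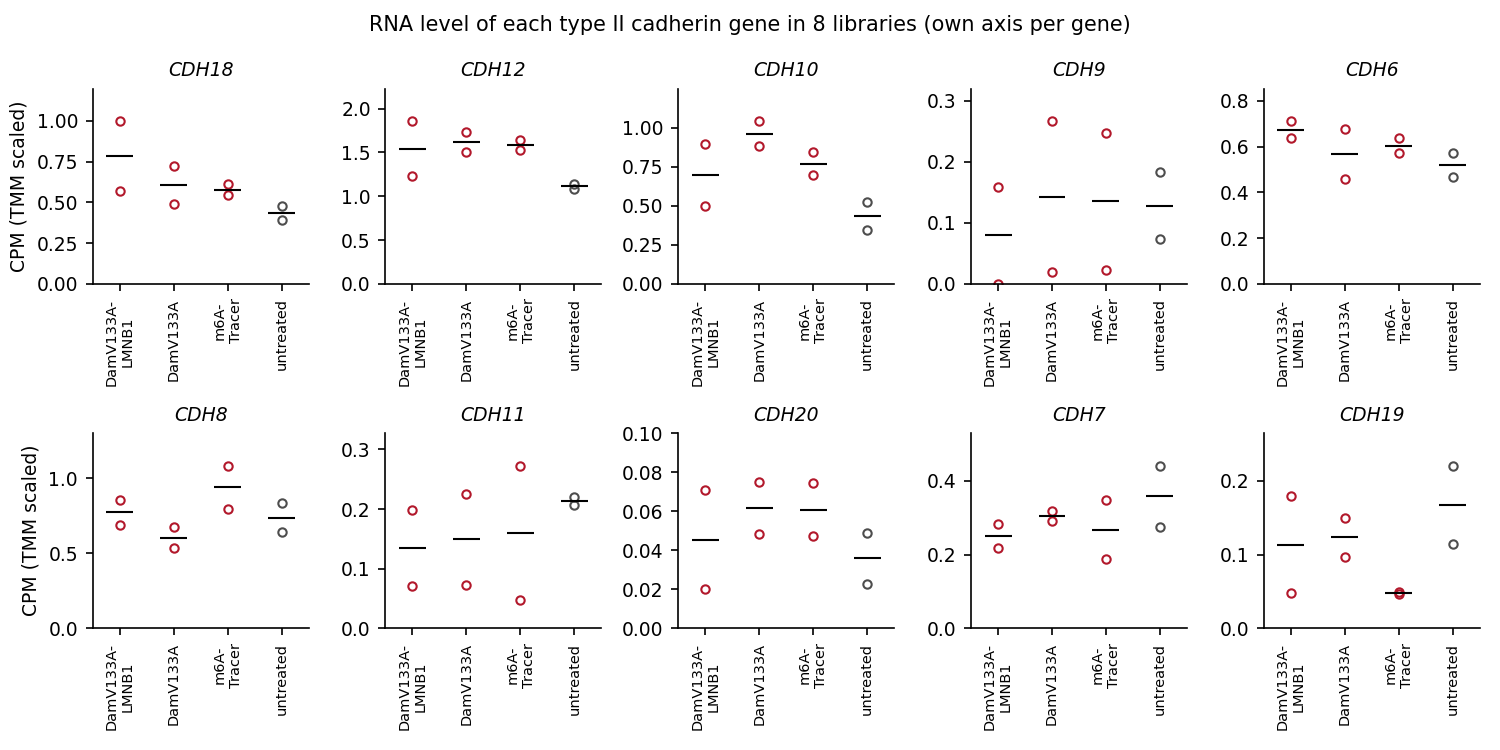
RNA level in CPM (vertical axis, own scale for each gene, TMM scaled) in the 8 libraries by group, transfected in red and untreated in grey, with lines at the mean of 2. For CDH12 each transfected library lies above both untreated libraries, and for CDH9, CDH11, CDH20 and CDH19 values stay under 0.3 CPM.

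The other genes were nearer the detection limit, 3 counts or 0.056 to 0.074 CPM by library. CDH9 had 0.16 and 0 CPM with the fusion, where a count of 0 allows up to 0.071 CPM, and 0.18 and 0.07 CPM in untreated cells. CDH7 had 0.22 and 0.28 CPM with the fusion, against 0.27 and 0.44 CPM in untreated cells. CDH11 had 0.20 and 0.07 CPM with the fusion, against 0.21 and 0.22 CPM in untreated cells. CDH19 and CDH20 had 2 to 9 and 1 to 4 estimated counts per library, too few to show a difference.

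By a rule on likeness, the 3 genes whose log2 CPM followed CDH12 best over the 8 libraries, among 17739 others, were RAB23 (Pearson r = 0.99), LNX2 (0.98) and DNAH7 (0.98), a description of 8 libraries in 4 groups. The other cadherin genes listed lay mostly in iLAD bins. The 3 other type II or related genes, CDH5, CDH22 and CDH24, had 0 of 6 bins LAD and 6 iLAD, and CDH24 had 12.3 CPM with the fusion and 14.0 CPM in untreated cells. Of the 5 type I genes, 13 of 16 bins were iLAD and 2 LAD, both in CDH2, which encodes N-cadherin and had 104.6 CPM with the fusion, 107.3 CPM with DamV133A and 128.9 CPM in untreated cells. CDH2 fell by 0.30 on the log2 scale with the fusion over untreated (edgeR adjusted p = 0.0176) and CDH1, E-cadherin, by 0.59 (edgeR adjusted p = 0.0335), with 0 of the 5 higher. With DamV133A over untreated CDH2 fell by 0.26 (edgeR adjusted p = 0.0197) and CDH1 by 0.60 (edgeR adjusted p = 0.0243). With m6A-Tracer over untreated 0 of the 5 were called, with CDH2 at -0.22 (edgeR adjusted p = 0.0619) and CDH1 at -0.44 (edgeR adjusted p = 0.1). Both were called when no low-count filter was used, at -0.23 and -0.44 (edgeR adjusted p = 0.0261 and 0.0136). Some markers of the line were lower than in untreated cells too. Of the 7 HEK293T markers, CDH2 among them, 4 were lower and 0 higher with the fusion over untreated, 4 and 0 with DamV133A over untreated, and 3 and 0 with m6A-Tracer over untreated. The neurofilament gene NEFL was at -0.58, -0.89 and -0.65 in these contrasts, NEFM at -0.68, -0.74 and -0.66, and VIM, which encodes vimentin, at -0.27, -0.49 and -0.42, all called. The VIM call with the fusion was lost without either untreated library (-0.25 and -0.29). That with m6A-Tracer was lost without either m6A-Tracer library (-0.43 and -0.41) or untreated library 1 (-0.40). Calls fell over the whole table in each of these fits. With DamV133A-LMNB1 over DamV133A the markers went the other way, with 4 of the 7 higher and 0 lower. Of all genes tested, 12.7% were higher and 7.55% lower there. VIM and NEFL were among the 4, and neither was called without DamV133A library 1 (0.23 and 0.33) or library 2 (0.22 and 0.29). The part of the marker shifts in the cadherin values was not tested.

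Of 9 catenin and p120 family genes, which hold the partners of the cadherin tail, 36 of 59 bins were LAD and 8 iLAD. The LAD bins lay in CTNNA3 (18 of 19), CTNNA2 (12 of 16) and CTNND2 (6 of 11), whose means were under 1 CPM in all 4 groups, and the other 6 genes of the list had 0. CTNNA1, the alpha-catenin of epithelia, fell by 0.23 with the fusion over untreated (edgeR adjusted p = 0.0354) and by 0.21 with DamV133A over untreated (edgeR adjusted p = 0.0405). CTNND1, which encodes p120, was lower with DamV133A-LMNB1 than with DamV133A (-0.32, edgeR adjusted p = 0.0424), and the other 8 were not called in that contrast. Of the proteases that process cadherins, FURIN, which cleaves their precursors, fell by 0.21 with DamV133A over untreated (edgeR adjusted p = 0.026), and ADAM10, which sheds their outer part, was not called in any contrast. The calls of CDH1, CDH2 and CTNNA1 with the fusion were each lost without either untreated library, at -0.67 and -0.50, -0.34 and -0.26, and -0.26 and -0.21. The call of CTNNA1 was also lost with scaling by library totals (-0.22, edgeR adjusted p = 0.0596). The calls of the 4 genes with DamV133A over untreated were lost without any 1 of the 4 libraries. With scaling by library totals they were lost too, at -0.50 for CDH1, -0.17 for CDH2, -0.12 for CTNNA1 and -0.12 for FURIN. In both contrasts calls also fell over the whole table when these libraries were left out. Without either DamV133A library CTNND1 stood at -0.33 and -0.30 and was not called. Nearly all calls of DamV133A-LMNB1 over DamV133A in the whole table were lost there.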

How the data were processed

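DamID was read in bulk, in a comparison of Dam variants and in single cells, and RNA in bulk, all in HEK293T. Unique fragment counts per 100 kb bin for each cell, bulk coverage counts per bin and counts per DpnI fragment of the variant set were used as the authors deposited them. Estimated counts per gene were likewise as deposited by the authors. The 100 kb table also has the authors' deposited log2 fold changes and the authors' 0 or 1 marks of control bins. Per the submitters' processing notes, Trimmomatic 0.39, BWA 0.7.15-r1140, SAMtools 1.9, bedtools 2.28, Salmon, DESeq2 and limma were used with hg38, the file that each tool made being not given in the sources used here.

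DpnI fragments were summed to 100 kb bins by their midpoint and estimated counts were rounded. All features were fitted with the edgeR 4.0.16 quasi-likelihood test (R 4.3.3) after filterByExpr and TMM, and p was adjusted by Benjamini-Hochberg over all features, with DESeq2 1.42.0 as an alternative. The 4 bulk libraries, 8 variant libraries and 8 RNA libraries each entered 1 fit. The fitting code was tested on simulated data. Genes were placed by RefSeq spans (GRCh38.p14), which share chromosome coordinates with hg38. Promoter sequences are RefSeq's. For each cell, expected fragments came from the summed bulk DamV133A libraries and the cell's depth, and a ratio of 1 or more counted as contact. Other settings were scaling, filter, test, replicate block, left-out libraries, gene span, contact threshold, thinning and reference. All 10 genes were named, with called genes of fixed lists of other adhesion genes. A further gene of these lists is not reported here. The members and lists were chosen with earlier results of these data known. Each cell was its own library, and no 2 columns held identical values. Intervals and floors cover counting error only.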

Additional observations from a re-analysis of the deposited data

How the results depend on the processing

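Of the 48 member bins, 40 to 44 were higher in bulk under 5 other settings (DESeq2 size factors, library totals, no low-count filter, the DESeq2 test and a replicate block) and 40 to 42 with 1 library left out. For V133A the counts were 28 to 38 and 26 to 35. With wild-type Dam the count of 5 became 3 with DESeq2 size factors, 0 with library totals, 17 with the DESeq2 test, 3 with the replicate block, 3 from covered fragments in place of counts, and 0 to 13 with a library left out. Lower bins numbered 0, and 0 to 1 with a library left out. The difference between variants had 0 bins higher, 8 with the DESeq2 test and 0 to 1 with a library left out. In RNA 1 member, CDH10, was called with no low-count filter, and 9 in place of 1 reached the level threshold when it was 0.1 CPM. In single cells the first-batch mean was 38.7% at 2 times the expected number, and the second-batch mean 27.2% there and 53.6% with equal bins as the expectation. Where leaving out a library gave 0 wild-type member calls, no bin of the whole table was called higher either. Calls of higher bins moved over the whole table too. For V133A they numbered 7768 of 28733 by TMM and 5317 when scaled by library totals. They also fell in each fit that left out a V133A library. For wild type the table had 694 higher bins by TMM, 525 by DESeq2 size factors and 31 by library totals. It had 474 under the replicate block, 3055 by the DESeq2 test and 506 of 28312 from covered fragments. No result changed sign while called. The cause of these changes was not tested. Same-numbered libraries did not deviate together (correlations of -0.05 to 0.031), so the replicate numbers are taken only as numbers. The block ended the call of 2 V133A bins, 2 wild-type bins and CDH1, CTNNA1, CTNND1 and VIM in RNA. Depth limits the RNA of CDH19 and CDH20 and the single-cell values of CDH7 and CDH19 most.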
